A study of Mus musculus with 8 samples.

Results

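The axon guidance genes described here are the ligands and receptors of 4 signalling systems: semaphorins with plexins and neuropilins, ephrins with Eph receptors, Slits with Robos, and netrins with Dcc, Neo1 and the Unc5 receptors. They were chosen by gene symbol alone, and 70 of the 55414 genes in the count table matched. RNA was measured in enteric neurons, labelled as such after sorting with antibodies to CD24 and CD56, from the colons of Emb knockdown mice (4 libraries) and WT mice (4 libraries). All mice were aged 4 weeks, each sorted tube held about 250 cells, and all libraries came from a Smart-seq kit, which amplifies RNA from very small inputs. The sources used here give neither the strain nor the way in which Emb was knocked down. The labels name 4 mice of each genotype but do not tie each tube to 1 mouse, so the p-values rest on library-to-library spread, which may be partly technical.

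Guidance cues steer the growing tip of an axon, or a migrating cell, towards or away from a target. Secreted class 3 semaphorins bind neuropilins, which pass the signal on through plexins, whereas most membrane-bound semaphorins bind plexins directly. Ephrins stay on the cell surface and signal on contact: ephrin-A ligands are held by a lipid anchor and mostly bind EphA receptors, and ephrin-B ligands span the membrane and mostly bind EphB receptors. Slits act through Robo receptors, mainly as repellents. Netrin-1 attracts through Dcc and repels where an Unc5 receptor is present. In the gut these systems act on enteric neural crest cells and their axons, and Eph receptors with ephrins also sort cells along the intestinal crypts.

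The libraries differed with genotype before any guidance gene was considered. Total counts ranged between 2024372 and 2712754 in Emb knockdown and between 698930 and 954191 in WT libraries. The ribosomal RNA gene Rn18s-rs5 held 29.2 to 42.5% of counts in Emb knockdown and 3.55 to 12.999% in WT libraries. Emb itself had 5, 25, 3 and 5 counts in Emb knockdown and 4, 6, 22 and 16 counts in WT libraries (log2 fold change −1.24, SE 0.82, edgeR Benjamini-Hochberg adjusted p = 0.529), so the labels could not be checked by their target. A background level was taken in each library from 1505 olfactory, vomeronasal and trace amine receptor genes, as counts per kilobase of exon. Of 15 enteric neuron markers, most did not reach 5 times that background in every library of either genotype, while Elavl3 did so in all 4 Emb knockdown and all 4 WT libraries. Summed macrophage and dendritic cell markers reached 3899.9 to 7121 CPM (counts scaled to a common effective library size) in Emb knockdown and 707 to 2540 in WT libraries, and 6 of the 9 tested were higher at an unadjusted p under 0.05. C1qa made up most of that sum in every library. Taken singly, C1qa, Cd74, Adgre1 and Mrc1 did not overlap between the genotypes, while Cd68, Csf1r, C1qb, C1qc, Lyz2 and Itgax did. Summed fibroblast markers were at 263 to 497 CPM in Emb knockdown and 72.0 to 225 CPM in WT libraries. Summed markers of smooth muscle, pericytes and interstitial cells of Cajal were separated the other way, at 71.9 to 117 CPM in Emb knockdown and 121 to 163 CPM in WT libraries. Of the 5 tested, 0 had an unadjusted p under 0.05 in either direction, and each single marker overlapped between the genotypes. In such bulk samples, fewer cells of a type and less RNA per cell cannot be told apart.

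Most guidance genes were measured close to the background. Levels per exonic kilobase, in multiples of the background, had a median over the 70 genes of 1.35 to 2.37 in Emb knockdown and 1.17 to 1.63 in WT libraries. Over all 21927 protein-coding genes the median was 1.42 to 1.76 in Emb knockdown and 0.715 to 1.17 in WT libraries. The median over the ligands was 1.55 to 2.51 in Emb knockdown and 1.18 to 1.51 in WT libraries. Over the receptors it was 1.35 to 2.45 in Emb knockdown and 0.972 to 2.06 in WT libraries. Between 7 and 19 of the 70 genes reached 5 times the background in an Emb knockdown library, and between 4 and 11 did so in a WT library, or 10 to 27.1% in Emb knockdown and 5.71 to 15.7% in WT libraries. Of protein-coding genes, 11.96 to 21.0% did so in Emb knockdown and 8.26 to 11.2% in WT libraries. Nrp1 reached it in all 8 libraries, as did 1.73% of protein-coding genes. Efnb1 and Epha10 did so in all 4 Emb knockdown libraries but not in all 4 WT libraries, and Sema3c in all 4 WT libraries but not in all 4 Emb knockdown libraries. Of the 70, 38 reached it in at least 1 library, as did 47.3% of protein-coding genes, and 32 in none, among them Dcc, Ntn3, Slit1, Slit2, Robo2 and Neo1. Apart from Nrp1, no guidance gene reached it in every library.

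**Figure D1:**
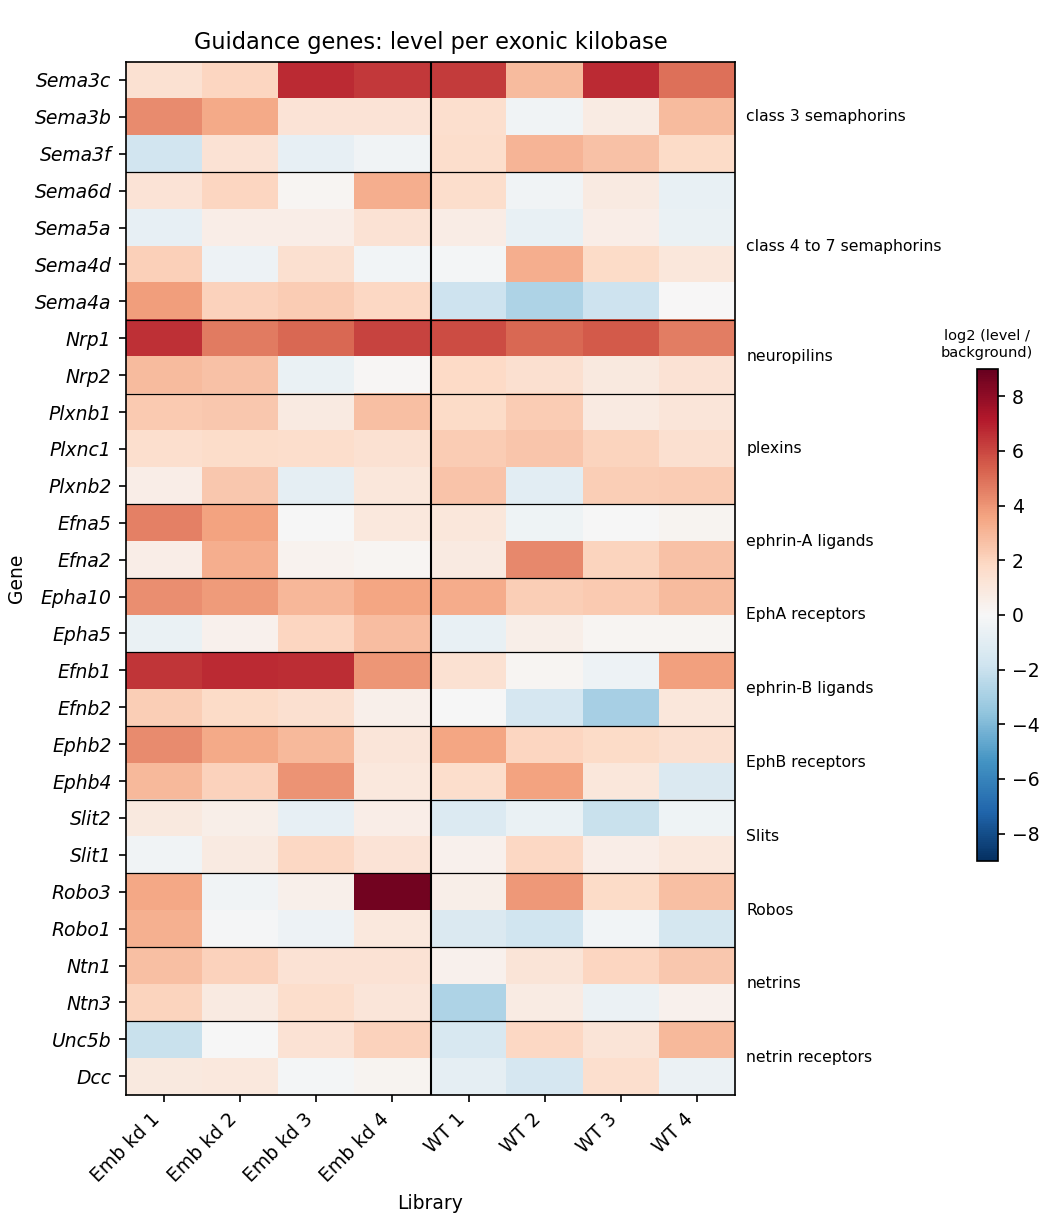
Level of 28 guidance genes (rows, grouped by family) in each library (columns, Emb knockdown left of WT), as log2 of counts per exonic kilobase over the receptor-gene background of that library. The genes shown are the 2 most abundant of each family and the 10 with the smallest p. Nrp1 is at or above 5 times the background in all 8 libraries. The rows of most other genes shown change from library to library within a genotype.

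Of all 70 genes, 59 passed the filter on low counts and were tested, with log2 fold changes given as Emb knockdown over WT. None passed a Benjamini-Hochberg adjusted p of 0.05 in edgeR's quasi-likelihood test, as was true of all 11353 genes tested (0%). The lowest adjusted p was 0.275 among the guidance genes and 0.0719 among all genes. At an unadjusted p under 0.05, 5 guidance genes were called, or 8.47%, against 13.3% of all genes tested. Sema4a, Efnb1, Robo1 and Efna5 were higher in Emb knockdown, where 8.64% of all genes were called, and Sema3f was lower, where 4.64% of all genes were called. DESeq2 with the same filter called 3 of them at an adjusted p of 0.05 (Sema4a, Efnb1 and Sema3f), beside 6.6% of all genes, while limma voom called 0 guidance genes and 0% of all genes. Without the filter on low counts, edgeR called 3 (Sema4a, Efnb1 and Robo3), beside 1.88% of all genes. At an unadjusted p under 0.05, 9 were called when scaled by library totals (18.3% of all genes), 2 higher and 7 lower in Emb knockdown, and 8 when scaled to the receptor genes (19.4%), 7 higher and 1 lower. The balance of directions therefore turned with the scaling, while Sema4a and Efnb1 were higher and Sema3f lower under each. The libraries of Emb knockdown and WT did not overlap for 3 of the 59 genes, or 5.08%, against 8.28% of all genes tested: Sema4a was above (4.03% of all genes), and Sema3f and Plxnc1 were below (4.25%). Log2 fold changes were above 0 for 25 genes and below 0 for 34, with a median of −0.23, against 0.04 over all genes. The median SE of a guidance gene's log2 fold change was 0.78, ranging between 0.53 and 1.72.

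**Figure D2:**
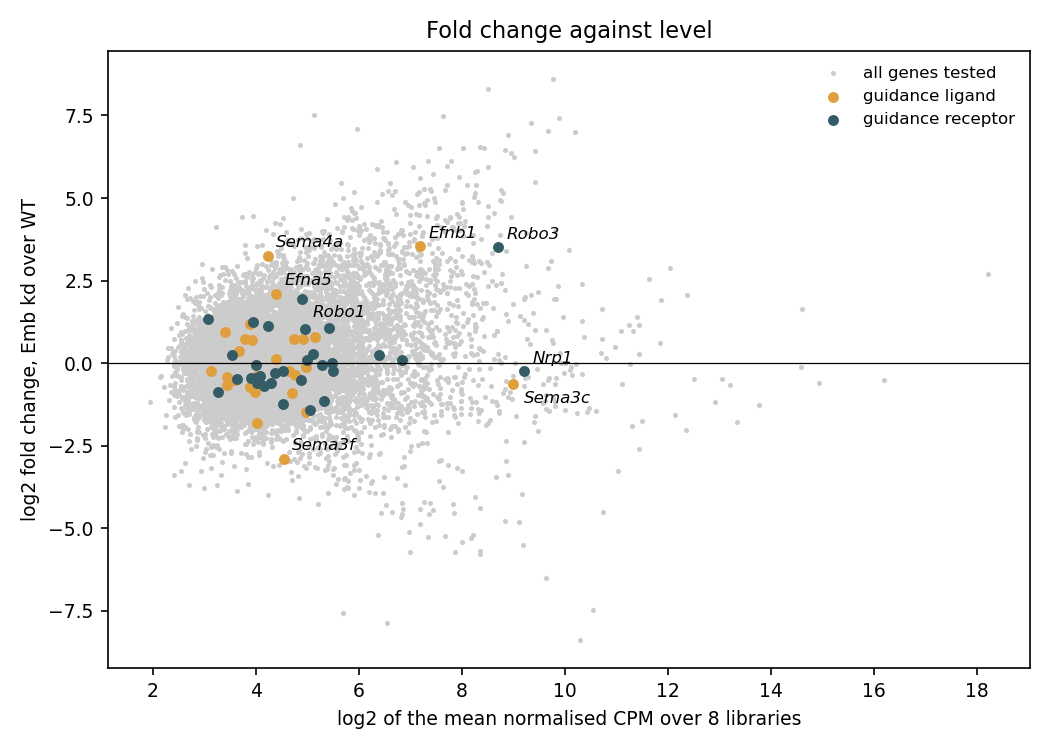
Log2 fold change (Emb knockdown over WT) of each tested gene against log2 of its mean normalised CPM over 8 libraries, with guidance genes marked over all genes tested. The guidance genes lie within the cloud of all genes, with Sema4a and Efnb1 near its upper edge and Sema3f near its lower edge.

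Among the semaphorins, the cell-surface ligand Sema4a, which immune cells such as dendritic cells are known to carry, was at 61.3, 21.7, 32.4 and 20.7 CPM in Emb knockdown and at 2.57, 1.15, 2.28 and 8.43 CPM in WT libraries. All 4 Emb knockdown libraries lay above all 4 WT libraries, where the gene had 1 to 6 counts. The mean was 34.0 ± 18.9 CPM in Emb knockdown and 3.61 ± 3.27 CPM in WT (SD, n = 4 each), a log2 fold change of 3.25 (95% interval 1.57 to 4.93, edgeR adjusted p = 0.275). Sema4a was at 3.62 to 13.5 times the background in Emb knockdown and at 0.145 to 1.04 times in WT libraries. The gene lies at chr3:88435959-88461182 on the minus strand (GRCm38). The summed level of the macrophage and dendritic cell markers, mostly C1qa, did not overlap between genotypes either and moved in the same direction. Several of these markers taken singly did overlap, and their part in the result was not tested. The unadjusted p stayed under 0.05 in 17 of 17 fits, with log2 fold changes between 2.52 and 4.10, and the adjusted p was 0.000619 with DESeq2 and 0.0217 without the filter on low counts. These fits reuse the same libraries and are not independent checks. Where the filter was used, Sema4a passed it through its Emb knockdown libraries, the group in which it was high.

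Sema3f, a secreted repellent that signals mainly through neuropilin-2, had the opposite pattern. It was at 1.33, 12.2, 3.78 and 4.39 CPM in Emb knockdown and at 27.0, 63.2, 49.4 and 25.3 CPM in WT libraries. Every Emb knockdown library lay below every WT library. The mean was 5.42 ± 4.70 CPM in Emb knockdown and 41.2 ± 18.3 CPM in WT (SD, n = 4 each), with a log2 fold change of −2.90 (95% interval −4.51 to −1.28, edgeR adjusted p = 0.294; 0.000784 with DESeq2). Its level was 0.304 to 2.45 times the background in Emb knockdown and 3.06 to 8.28 times in WT libraries. The log2 fold change lay between −3.67 and −2.30 in 17 fits, with an unadjusted p under 0.05 in each. The fits share libraries and are not independent checks, and Sema3f passed the filter on low counts through its WT libraries. The summed smooth muscle, pericyte and Cajal cell markers were also lower in every Emb knockdown library than in every WT library. This is the direction of Sema3f and of Plxnc1, although each of these markers taken singly overlapped between the genotypes. Their part in either result was not tested. Sema3f lies at chr9:107681500-107710475 on the minus strand (GRCm38).

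Sema3c, a secreted semaphorin that binds both neuropilins, differed widely between the libraries of each genotype. It had 15.3, 26.5, 926 and 630.3 CPM in Emb knockdown and 935, 77.0, 1146 and 327 CPM in WT libraries. The groups overlapped over nearly their whole range, and the log2 fold change was −0.64 (SE 1.23, edgeR adjusted p = 0.863). Sema3b, another secreted ligand, was at 76.6, 47.7, 13.5 and 11.9 CPM in Emb knockdown and at 23.2, 5.75, 12.2 and 50.6 CPM in WT libraries. The membrane ligand Sema4d, the ligand of plexin-B1, was at 28.6, 5.30, 25.4 and 6.89 CPM in Emb knockdown and at 11.6, 110, 38.8 and 23.9 CPM in WT libraries (log2 fold change −1.48, SE 0.82, edgeR adjusted p = 0.456). Both genes overlapped between the genotypes. Sema5a and the class 6 member Sema6d had log2 fold changes of −0.13 (SE 0.65) and 0.80 (SE 0.78), with edgeR adjusted p = 0.961 and 0.692. The remaining 11 tested semaphorins had log2 fold changes between −0.92 and 0.69.

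No neuropilin or plexin had an unadjusted p under 0.05 in edgeR with TMM factors. Nrp1, the neuropilin that binds Sema3a and also vascular endothelial growth factor, was at 789, 241, 437 and 707 CPM in Emb knockdown and at 995, 521, 692 and 351 CPM in WT libraries. Its level was 25.6 to 95.7 times the background in Emb knockdown and 23.9 to 59.8 times in WT libraries. The genotypes overlapped, with a log2 fold change of −0.24 (95% interval −1.71 to 1.24, edgeR adjusted p = 0.918). Endothelial cells are known to carry Nrp1. The summed endothelial markers ranged between 217 and 1488 CPM in Emb knockdown and between 381 and 2097 CPM in WT libraries. Pecam1 alone was at 117, 116, 1333 and 197 CPM in Emb knockdown and at 1253, 1291, 339 and 1946 CPM in WT libraries. It made up most of the sum in every library except Emb knockdown replicate 1. The sum is therefore largely a reading of Pecam1, and the part of endothelial cells in the Nrp1 level was not tested. Nrp2, which prefers Sema3f, was at 73.3, 69.5, 9.73 and 13.2 CPM in Emb knockdown and at 69.5, 48.3, 33.5 and 43.6 CPM in WT libraries. The genotypes overlapped here too, and the log2 fold change was −0.23 (SE 0.74, edgeR adjusted p = 0.928).

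Plxnc1, the plexin that receives Sema7a, was at 20.0, 25.4, 30.3 and 23.2 CPM in Emb knockdown and at 68.2, 67.8, 51.0 and 33.7 CPM in WT libraries. All 4 Emb knockdown libraries lay below all 4 WT libraries, and the SD of 4.32 CPM was the smallest of the 9 plexins in Emb knockdown. The log2 fold change was −1.16 (SE 0.53, edgeR adjusted p = 0.378), and the unadjusted p was under 0.05 in 5 of 17 fits, those with DESeq2 and limma voom among them. Plxnb1, the receptor of Sema4d, had a log2 fold change of 0.00 (95% interval −1.32 to 1.33), at 20.5 to 67.7 CPM in Emb knockdown and 25.9 to 70.1 CPM in WT libraries. Plxnb2 was at 9.99, 39.8, 5.40 and 16.9 CPM in Emb knockdown and at 78.5, 5.75, 54.8 and 56.2 CPM in WT libraries. One WT library was as low as the Emb knockdown libraries, and the log2 fold change was −1.43 (SE 0.83, edgeR adjusted p = 0.476), with an unadjusted p under 0.05 in 3 of 17 fits. The other 6 plexins had log2 fold changes between −0.59 and 1.11.

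**Figure D3:**
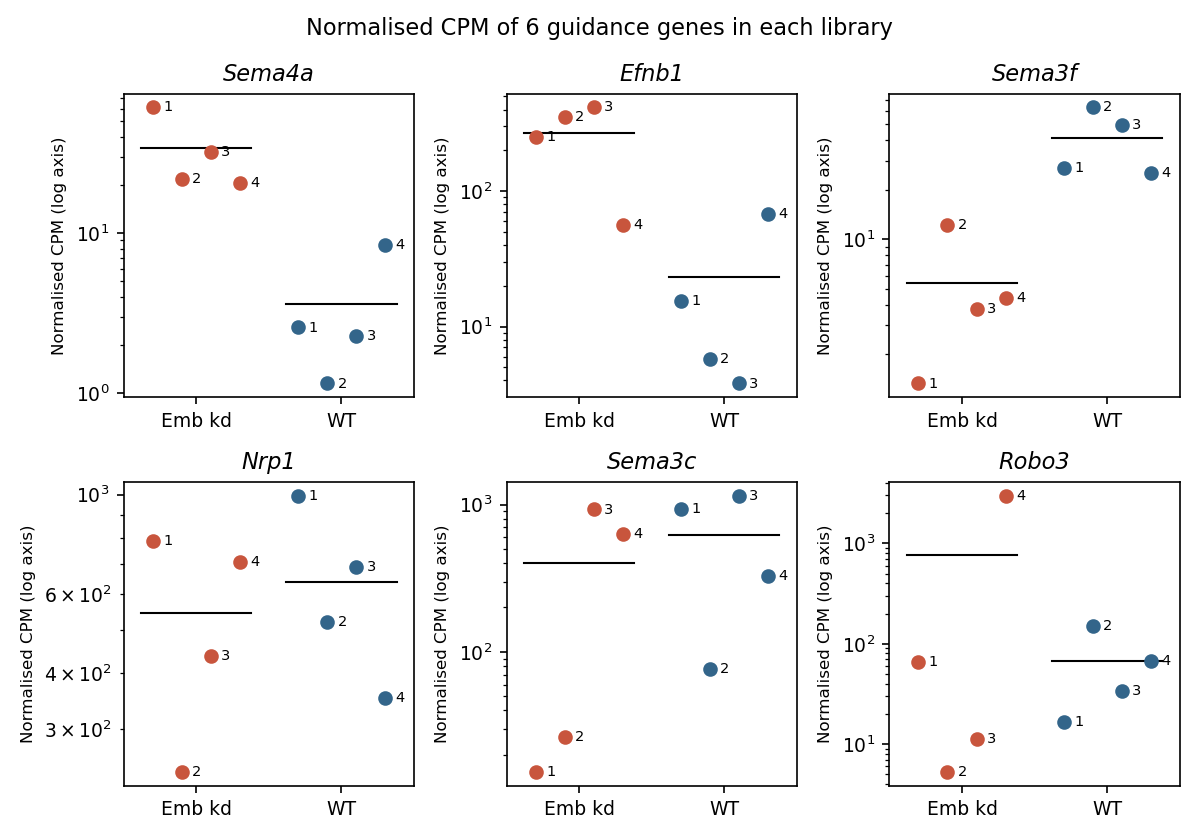
Normalised CPM (log axis) of 6 guidance genes in each library, Emb knockdown left of WT, with points for libraries, numbered by replicate, and a line at each group's mean. Sema4a and Sema3f separate the genotypes in opposite directions, Efnb1 does so except for its lowest Emb knockdown and highest WT library, Nrp1 and Sema3c overlap, and Robo3 reaches 2974 CPM in 1 Emb knockdown library.

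Among the ephrins, Efnb1, which encodes the membrane-spanning ligand ephrin-B1, was at 252, 353, 416 and 56.4 CPM in Emb knockdown and at 15.4, 5.75, 3.80 and 67.5 CPM in WT libraries. Emb knockdown replicates 1 to 3 lay above every WT library, while replicate 4 was below WT replicate 4. The mean was 269 ± 157 CPM in Emb knockdown and 23.1 ± 30.0 CPM in WT (SD, n = 4 each), with a log2 fold change of 3.55 (95% interval 1.19 to 5.91, edgeR adjusted p = 0.295). It was at 15.5 to 106 times the background in Emb knockdown and at 0.72 to 13.003 times in WT libraries. The unadjusted p stayed under 0.05 in 17 of 17 fits, with log2 fold changes of 3.00 to 5.09, the highest without WT replicate 4. As for Sema4a, these fits share libraries, and Efnb1 passed the filter on low counts through its Emb knockdown libraries. The adjusted p was 0.00236 with DESeq2 and 0.00652 without the filter on low counts. The related Efnb2 was at 26.6, 21.2, 23.2 and 10.02 CPM in Emb knockdown and at 11.6, 3.45, 0.761 and 21.1 CPM in WT libraries, and its log2 fold change of 1.17 (SE 0.84) had an edgeR adjusted p of 0.567. Limma voom was 1 of the 2 fits, of 17, in which the unadjusted p of Efnb2 was under 0.05.

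Of the lipid-anchored ephrins, Efna5 was at 77.9, 46.7, 4.86 and 8.14 CPM in Emb knockdown and at 14.2, 4.60, 6.09 and 7.03 CPM in WT libraries. Emb knockdown replicates 1 and 2 were high, and the other two lay within the WT range. Its log2 fold change was 2.11 (SE 0.90, edgeR adjusted p = 0.348), and without either of the high libraries the gene no longer passed the filter on low counts. The unadjusted p was under 0.05 in 8 of the 14 fits that tested it, and not with limma voom. Efna2 was at 2.66, 20.1, 3.24 and 2.51 CPM in Emb knockdown and at 6.43, 63.2, 12.9 and 19.7 CPM in WT libraries (log2 fold change −1.81, SE 0.93, edgeR adjusted p = 0.42). The groups overlapped because Emb knockdown replicate 2 lay within the WT range.

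Efnb1 and Efna5 are the ephrins with an unadjusted p under 0.05 in edgeR with TMM factors, and each has 1 listed transcription start. Their promoters (250 bases before to 50 after the start, RefSeq, GRCm38.p6) are shown to set the flanking sequence of these ligands side by side. The windows lie at chrX:99135811-99136110 on the plus strand and at chr17:62881268-62881567 on the minus strand, and capitals mark motif matches.
Efnb1: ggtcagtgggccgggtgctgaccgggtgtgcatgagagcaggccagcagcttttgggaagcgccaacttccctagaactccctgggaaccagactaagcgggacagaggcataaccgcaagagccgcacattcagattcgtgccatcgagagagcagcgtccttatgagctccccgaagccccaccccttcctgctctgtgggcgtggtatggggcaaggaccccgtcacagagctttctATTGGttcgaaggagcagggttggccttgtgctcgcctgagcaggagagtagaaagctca
Efna5: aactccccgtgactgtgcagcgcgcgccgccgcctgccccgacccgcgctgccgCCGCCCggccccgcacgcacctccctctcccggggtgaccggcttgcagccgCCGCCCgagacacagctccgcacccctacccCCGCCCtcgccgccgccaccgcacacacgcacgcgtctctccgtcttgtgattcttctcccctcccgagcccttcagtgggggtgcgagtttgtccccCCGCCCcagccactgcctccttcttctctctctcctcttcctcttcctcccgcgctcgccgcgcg
The Efnb1 window holds 14 CpG dinucleotides at 59.7% GC and 1 CCAAT box, read as ATTGG on the other strand. The Efna5 window holds 38 CpG dinucleotides at 73.3% GC and 4 GC boxes (GGGCGG), read as CCGCCC. Both strands were searched for the TATA box (TATAAA), the CCAAT box (CCAAT), the GC box (GGGCGG), the AP-1 motif (TGANTCA) and the cyclic AMP response element (TGACGTCA), and no match overlapped another in these windows. Of all 32851 promoter windows, 13.6% hold the TATA box, 37.4% the CCAAT box, 35.7% the GC box, 7.81% the AP-1 motif and 1.79% the cyclic AMP response element. Of the 76 windows of the 60 guidance genes that have one, 2.63% hold the TATA box, 28.9% the CCAAT box, 71.1% the GC box, 3.95% the AP-1 motif and 1.32% the cyclic AMP response element. These matches describe the sequence only.

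The Eph receptors, which bind these ligands, showed no call in either direction. Epha10, a receptor that lacks kinase activity, was at 112, 96.5, 69.7 and 89.0 CPM in Emb knockdown and at 124.8, 49.4, 55.5 and 78.7 CPM in WT libraries (log2 fold change 0.25, SE 0.59, edgeR adjusted p = 0.897). Epha5, a neuronal receptor of ephrin-A5, was at 9.33, 20.7, 78.4 and 122.8 CPM in Emb knockdown and at 18.01, 35.6, 28.9 and 28.1 CPM in WT libraries. Its 2 highest libraries were Emb knockdown replicates 3 and 4, and its log2 fold change was 1.06 (SE 0.78, edgeR adjusted p = 0.574). Ephb2, a receptor of ephrin-B1 that is known from intestinal crypts, was at 199, 127, 119 and 28.8 CPM in Emb knockdown and at 253, 71.3, 64.7 and 50.6 CPM in WT libraries. The genotypes overlapped, with a log2 fold change of 0.11 (SE 0.79, edgeR adjusted p = 0.972). Ephb4, the receptor that prefers ephrin-B2, was at 29.3, 18.6, 93.5 and 9.40 CPM in Emb knockdown and at 23.2, 85.1, 14.5 and 2.81 CPM in WT libraries (log2 fold change 0.26, SE 0.95). The other 7 tested Eph receptors had log2 fold changes between −0.70 and 1.25, and the lowest edgeR adjusted p among them was 0.522.

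Among the Robos, Robo3 rested on 1 library. This receptor, which lets commissural axons cross the midline, had 66.0, 5.30, 11.3 and 2974 CPM in Emb knockdown and 16.7, 149, 34.2 and 67.5 CPM in WT libraries. Emb knockdown replicate 4 held 4747 counts, 411 times the background, while the other 3 Emb knockdown libraries lay within the WT range or below it. The log2 fold change was 3.51 (SE 1.72, edgeR adjusted p = 0.401; 0.0127 without the filter on low counts) and −1.28 without that library. Robo4, an endothelial receptor that lies next to Robo3 on chromosome 9, had 56 counts in the same library and 72 in WT replicate 2. Robo1, the main Slit receptor of many neurons, was at 128, 14.8, 14.6 and 33.2 CPM in Emb knockdown and at 11.6, 6.90, 21.3 and 8.43 CPM in WT libraries. Its log2 fold change of 1.95 (SE 0.82, edgeR adjusted p = 0.338) became 0.76 without Emb knockdown replicate 1. Its unadjusted p was under 0.05 in 10 of 17 fits, and not with limma voom or library totals. The ligands were low in both genotypes: Slit1 had a log2 fold change of −0.40 (SE 0.68). Slit2 was at 38.6, 35.5, 18.9 and 40.7 CPM in Emb knockdown and at 18.01, 24.1, 9.89 and 29.5 CPM in WT libraries (log2 fold change 0.72, SE 0.57, edgeR adjusted p = 0.607). Slit2 was at most 1.80 times the background in every library.

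Netrin-1 and its receptors were near the background in most libraries. Ntn1 was at 34.6, 24.9, 19.5 and 16.3 CPM in Emb knockdown and at 14.2, 20.7, 36.5 and 50.6 CPM in WT libraries, with a log2 fold change of −0.35 (SE 0.59, edgeR adjusted p = 0.838). Ntn3, a related netrin, was at 17.3, 8.48, 18.9 and 11.3 CPM in Emb knockdown and at 1.29, 12.6, 5.33 and 9.84 CPM in WT libraries (log2 fold change 0.94, SE 0.71, edgeR adjusted p = 0.588). The attractive receptor Dcc was at 20.0, 24.9, 14.0 and 16.3 CPM in Emb knockdown and at 12.9, 6.90, 57.8 and 14.1 CPM in WT libraries. Both genotypes overlapped, and the log2 fold change was −0.30 (SE 0.70). The repulsive receptor Unc5b, which endothelial cells also use, was at 1.33, 5.83, 18.9 and 28.2 CPM in Emb knockdown and at 3.86, 33.3, 21.3 and 71.7 CPM in WT libraries (log2 fold change −1.25, SE 0.95, edgeR adjusted p = 0.587). Neo1, a netrin and repulsive guidance molecule receptor, was at 9.33, 12.2, 14.6 and 12.5 CPM in Emb knockdown and at 1.29, 0, 5.33 and 12.6 CPM in WT libraries, which overlapped (log2 fold change 1.34, SE 0.90, edgeR adjusted p = 0.538).

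The 11 genes that did not pass the filter on low counts were Sema3d, Sema3g, Efna1, Efna4, Efnb3, Epha1, Epha6, Ephb6, Ntn4, Ntn5 and Unc5d. Their highest count in any library was 78. None separated the genotypes in CPM, although the raw counts of Sema3d and Efna1 did not overlap. Sema3d had 60, 10, 24 and 12 counts in Emb knockdown and 2, 2, 4 and 6 counts in WT libraries. The ratio of the summed counts, scaled to the effective library sizes, was 4.07 in Emb knockdown over WT (exact 95% interval 2.32 to 7.70, counting error only). For Efna1 the sums were 48 counts in Emb knockdown and 6 in WT libraries (ratio 4.30, interval 1.84 to 12.3). Sema3g had 45 counts in Emb knockdown and 6 in WT libraries (ratio 4.03, interval 1.71 to 11.6). Unc5d had a ratio of 2.45 (interval 1.58 to 3.95), and the other 7 had ratios between 0.562 (Epha1) and 1.26 (Ephb6) with intervals that include 1. These intervals leave out the spread between libraries, which for Sema3d reached from 10 to 60 counts within Emb knockdown.

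Summed by family, the ephrin-B ligands and the Robos stood furthest apart between the genotypes, and in both a single gene held most of the difference. The 3 ephrin-B ligands summed to 294 ± 164 CPM in Emb knockdown and 36.1 ± 36.7 CPM in WT (SD, n = 4 each; log2 ratio 3.03), and 3 of the 4 Emb knockdown libraries were above all WT libraries. Without Efnb1 the sums were 24.5 ± 9.92 CPM in Emb knockdown and 12.9 ± 6.95 CPM in WT (log2 ratio 0.92). The 4 Robos summed to 846 ± 1471 CPM in Emb knockdown and 115 ± 99.5 CPM in WT, a log2 ratio of 2.88 that became −0.04 without Emb knockdown replicate 4. The plexins summed to 267 ± 58.7 CPM in Emb knockdown and 310 ± 20.3 CPM in WT (log2 ratio −0.22). Class 3 semaphorins summed to 489 ± 420 CPM in Emb knockdown and 715 ± 499 CPM in WT. Sema3c held 10.3 to 93.8% of that sum in Emb knockdown and 46.5 to 93.6% in WT libraries. Neuropilins summed to 585 ± 251 CPM in Emb knockdown and 688 ± 284 CPM in WT, mostly Nrp1. The remaining 7 families had log2 ratios between −0.30 (netrin receptors) and 0.39 (Slits), each smaller than the spread between libraries. Scaling by library totals moved the median over all genes tested to −0.67 on the log2 scale, and scaling to the receptor genes to 0.64, against 0.04 with TMM factors. Ephrin-B ligands (2.46 by library totals, 3.62 by receptor genes) stayed above 0 under both, as did Robos (2.21 and 3.41) with Emb knockdown replicate 4 included. Class 3 semaphorins were at −1.16 and −0.04, against a pooled SD of 1.41 between libraries on the log2 scale with TMM factors. The log2 ratio of each of the other 9 families was below 0 by library totals and above 0 by receptor genes. No direction is given for these 9 families, for the class 3 semaphorins or for the Robos.

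**Figure D4:**
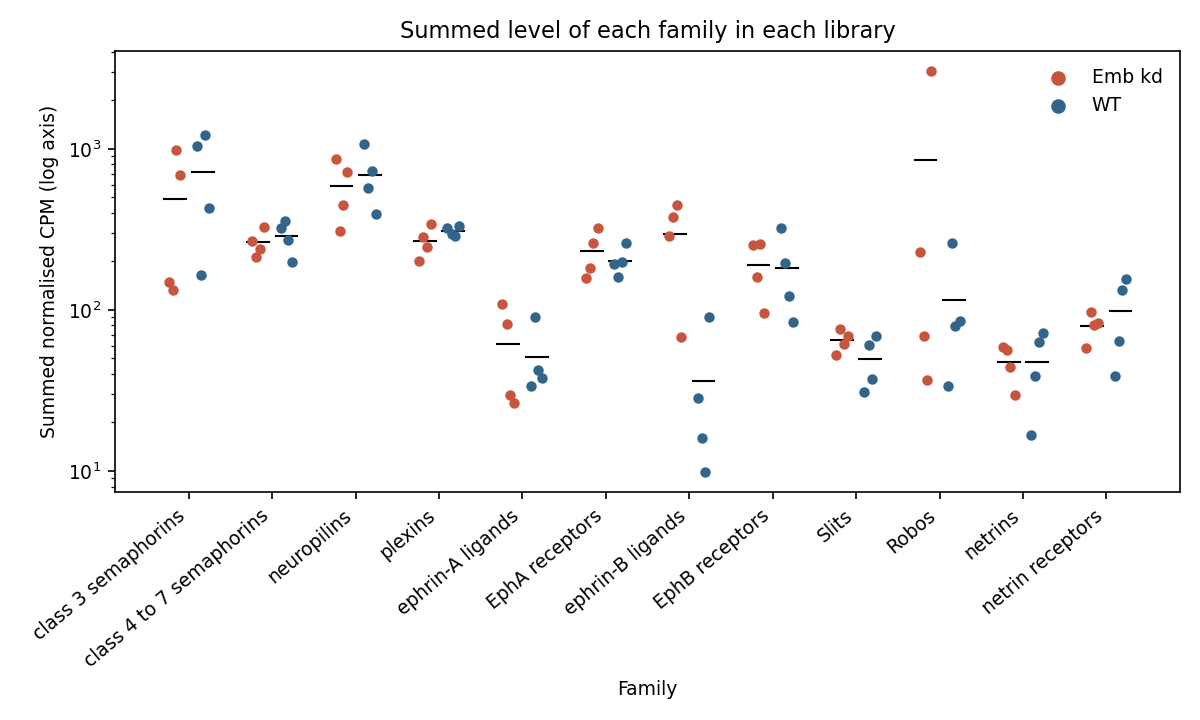
Summed normalised CPM (log axis) of each of the 12 families in each library, with Emb knockdown points left of WT points and a line at each group's mean. The ephrin-B ligands of 3 Emb knockdown libraries lie above all WT libraries, the Robos are set apart by 1 Emb knockdown library at 3049 CPM, and the other families overlap.

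Genes that carry guidance signals inside the cell were listed separately: adaptors, small GTPases and their regulators, cytoskeletal effectors, co-receptors and other cues. Of these 66 genes, 57 were tested and 0 passed the edgeR adjusted p, as for all genes, while 8 (14.0%) had an unadjusted p under 0.05, against 13.3% of all genes. Rock2, Arhgef12, Gsk3b, Nck1, Rac1 and Pak2 were higher in Emb knockdown, and Vasp and Ptk2 were lower. That makes 6 higher and 2 lower, where 8.64% of all genes were called higher and 4.64% lower. By library totals 3 were higher and 5 lower, beside 18.3% of all genes called in either direction. By receptor genes 10 were higher and 1 lower, beside 19.4% of all genes. The scaling moved all genes, not this list alone. The list's median log2 fold change was 0.07. The kinase gene Rock2, which acts on the actin cytoskeleton, was at 253, 229, 217 and 67.04 CPM in Emb knockdown and at 21.9, 26.4, 28.9 and 23.9 CPM in WT libraries. No WT library reached the lowest Emb knockdown library, and the log2 fold change was 2.92 (SE 0.69, edgeR adjusted p = 0.275). Arhgef12, a guanine nucleotide exchange factor that acts downstream of plexin-B receptors, was at 1492, 121, 447 and 100.2 CPM in Emb knockdown and at 54.0, 96.6, 49.4 and 63.2 CPM in WT libraries (log2 fold change 3.04, SE 0.97, edgeR adjusted p = 0.304). Vasp, which promotes actin filament growth, was at 63.3, 145, 177 and 219 CPM in Emb knockdown and at 1630, 323, 415 and 715 CPM in WT libraries. Its groups did not overlap either, with a log2 fold change of −2.35 (SE 0.79, edgeR adjusted p = 0.304). In this list the groups did not overlap for Rock2, Arhgef12 and Gsk3b (higher) and for Vasp (lower). Over all genes tested, they did not overlap for 4.03% (higher) and 4.25% (lower). Ptk2, the focal adhesion kinase gene, had a log2 fold change of −2.59 (SE 0.96), which became −0.93 without WT replicate 1. Gsk3b and the adaptor Nck1 had log2 fold changes of 2.63 (SE 0.93) and 2.78 (SE 1.03), with edgeR adjusted p = 0.311 and 0.315.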

How the data were processed

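Counts per gene were measured by Smart-seq in 8 libraries, 4 of Emb knockdown and 4 of WT mice. The authors deposited whole-number counts, not normalised. Per the submitters' processing notes, cutadapt and the build mm10 were used. For the aligner, the counter, the strand setting and the annotation, nothing is given in the sources used here, and reads of overlapping or antisense genes cannot be told apart. Symbols came from the table. Coordinates and exon lengths came from GENCODE M21 (GRCm38), which holds 52133 of the identifiers.

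All genes were fitted together with edgeR 4.0.16 in R 4.3.3 (TMM factors, filterByExpr with a minimum count of 10, robust quasi-likelihood test, group only), with Benjamini-Hochberg adjustment over all genes tested and a threshold of 0.05. CPM were computed from the counts with TMM factors. The script was tested on simulated data. Alternatives were DESeq2 1.42.0, limma 3.58.1 voom, no filter, 3 other scalings, thinning, a replicate block and leaving out each library. Intervals are at 95%. The members, families and lists were chosen with earlier results of these data known. The genes named are the 2 most abundant of each family, the 10 members with the smallest p, and the 6 signalling genes with the smallest p. Robo2, Robo4, Neo1, Rac1, Pak2 and genes outside the filter were added after their values were seen.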

Additional observations from a re-analysis of the deposited data

Results flagged for a closer look

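Of 92 groups of 4 libraries checked, 8 held a library far from the other 3 (the gap divided by the range was above Dixon's 95% critical value). About 4.6 would be flagged if the values were normal and the groups independent. CPM need not be normal, and Robo3 and the summed Robos share counts, so the 8 do not measure an excess over chance. In Emb knockdown, Robo3 was at 2974 CPM in replicate 4, against 5.30 to 66.0 CPM in the other 3 libraries, and the summed Robos were at 3049 CPM there, against 36.7 to 230 CPM. Robo1 was at 128 CPM in Emb knockdown replicate 1, against 14.6 to 33.2 CPM, and Gsk3b at 663 CPM in the same library, against 81.1 to 114 CPM. Efna2 was at 20.1 CPM in Emb knockdown replicate 2, against 2.51 to 3.24 CPM. Among WT libraries, Ephb2 was at 253 CPM in replicate 1, against 50.6 to 71.3 CPM. Dcc was at 57.8 CPM in WT replicate 3, against 6.90 to 14.1 CPM. The summed ephrin-A ligands were at 90.8 CPM in WT replicate 2, against 33.5 to 42.6 CPM.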

How the results depend on the processing

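The number of guidance genes past the adjusted p, 0 in edgeR, was 3 with DESeq2 (Sema4a, Efnb1, Sema3f, beside 6.6% of all genes). It was 3 without the filter on low counts (Sema4a, Efnb1, Robo3, beside 1.88% of all genes). For the signalling list, of which 57 genes were tested in edgeR, it was 4 with DESeq2 (Rock2, Ptk2, Vasp, Arhgef12), beside the same 6.6% of all genes. It was 2 without the filter (Rock2, Arhgef12), beside 1.88% of all genes. It stayed at 0 for both lists without any 1 library. The 5 guidance genes at an unadjusted p under 0.05 became 9 by library totals (18.3% of all genes) and 8 by receptor genes (19.4%), and 3 to 7 without 1 library. No share of all genes is given for the fits without 1 library, so that range is not read as a result about the members. The median log2 fold change was 0.10 without the filter, −0.94 by library totals, 0.44 by receptor genes and −0.22 to 0.055 without 1 library.

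By library totals the log2 ratios were −0.46 for EphA receptors, −0.28 for Slits, −0.84 for class 4 to 7 semaphorins, −1.02 for netrin receptors, −0.79 for netrins, −1.002 for neuropilins and −0.90 for plexins. By receptor genes they were 0.77 for EphA receptors, 0.98 for Slits, 0.49 for class 4 to 7 semaphorins, 0.45 for neuropilins and 0.39 for plexins. These shifts follow from the scaling, which moved all genes. Without 1 library, Robos ranged between −0.038 and 3.72.

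Log2 fold changes of named genes near 0 changed sign under some settings. By library totals they were −0.46 for Epha10, −0.62 for Ephb2, −0.24 for Ephb4, −0.096 for Sema3b and −0.70 for Plxnb1. By receptor genes they were 0.086 for Slit1, 0.45 for Sema5a, 0.34 for Dcc, 0.29 for Ntn1, 0.44 for Nrp1 and 0.53 for Nrp2. Without the filter they were 0.095 for Sema5a, 0.0049 for Nrp1 and 0.039 for Nrp2. Voom gave 0.011 for Dcc and −0.0068 for Plxnb1, DESeq2 size factors −0.00083 for Plxnb1, and thinning −0.042 for Ephb2 and −0.12 for Plxnb1. Without 1 library the ranges were −0.24 to 1.01 for Ephb2, −0.73 to 1.53 for Ephb4, −1.28 to 4.32 for Robo3, −0.92 to 0.017 for Slit1, −0.41 to 0.22 for Sema5a, −0.031 to 1.45 for Sema6d, −0.53 to 0.79 for Dcc, −0.59 to 0.074 for Ntn1, −0.46 to 0.13 for Nrp1, −0.64 to 0.11 for Nrp2 and −0.24 to 0.37 for Plxnb1. The cause was not tested.

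Same-numbered libraries correlated only at 0.0113 to 0.0337 in their deviations from the group means, and for that weakness the numbers were not taken as pairs. Still, 3 of the 4 Emb knockdown libraries and 2 of the 4 WT libraries correlated best with their own number, so this check does not settle the matter. With the number as a replicate block, 4 signalling genes and 4 guidance genes had an unadjusted p under 0.05 (8.09% of all genes), and log2 fold changes were 0.16 for Dcc and −0.021 for Plxnb1. The signalling list counted 5 after thinning (15.4% of all genes) and 4 to 8 without 1 library, the latter again with no share of all genes beside it.

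Depth limits these results: the guidance genes held 3838 to 9285 counts in Emb knockdown and 1573 to 4201 in WT libraries. Efna5 could not be tested after thinning or without Emb knockdown replicate 1 or 2. Leaving Robo3 out of the Robos, chosen after seeing the data, gave a log2 ratio of 0.78.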
